A study of Caenorhabditis elegans with 4 samples.

Results

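Broad DPY-26 regions of the X chromosome were taken from ChIP-seq peak lists of wild-type Caenorhabditis elegans embryos. The members were chosen by peak width and by replicate overlap. Each is a series-wide peak on X that was at least 800 bp wide and shared at least 1 bp with a peak in both ChIP replicate lists. The rule kept 403 regions of 9365 series-wide peaks in all, or 4.74% of the 8498 peaks on X. The study holds 4 samples, 2 DPY-26 ChIP samples (replicates 1 and 2) and 2 input DNA samples, all from mixed-stage embryos of strain N2, wild type, from a population of males and hermaphrodites at 20 °C. No treatment or mutation separated the groups. The ChIP used an affinity-purified rabbit polyclonal antibody on embryos fixed in 2% formaldehyde for 30 minutes. Embryos of both sexes and many stages were pooled. No label ties either replicate to its own worm culture, and differences between replicates can therefore be technical.

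DPY-26 is the kleisin subunit of the condensin complex that works in worm dosage compensation, and it also belongs to the mitotic condensin I. The dosage compensation complex binds both X chromosomes of hermaphrodite embryos and reduces their transcription, while the single X of males is not bound. It is known to load at recruitment elements on X (rex sites), where SDC-2 and its partners bring in the condensin, and to spread from there to other sites, many of them promoters of active genes. The strongest rex sites are also known as boundaries of topologically associating domains on X. Recruitment itself was not measured in these samples, so the regions are described here by width, score and position, and none was assigned to a rex site. Coordinates are on WormBase WS220. The score is the value the authors' peak caller gave each peak, of undefined scale, and it ranks peaks within a list only.

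Broad peaks recurred in the replicates more often than narrow ones, which the rule itself partly sets, since a wider peak has more bases to be met. Of 561 X peaks at least 800 bp wide, 403 were found in both replicate lists, or 71.8% (95% exact interval 67.9% to 75.5%). Of 7937 narrower X peaks, 937 were, or 11.8% (11.1% to 12.5%). The share over all X peaks was 15.8%. The broad regions were thus 30.1% of the 1340 reproducible X peaks. They spanned 531205 bases, or 3.00% of X.

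Most of the 403 regions were close to the width threshold, and a small group was far wider. The median width was 984 bp (interquartile range 880 to 1265 bp). Regions under 1000 bp numbered 212, those from 1000 to under 1500 bp numbered 129, and those from 1500 to under 3000 bp numbered 40. The remaining 22 were 3106 to 9571 bp wide and held 21.3% of all bases in the 403 regions. These classes were drawn after the widths were seen. The narrowest regions were X:2949902-2950702 (801 bp, series-wide score 18.03), X:2374774-2375575 (802 bp, score 47.59) and X:16401718-16402521 (804 bp, score 16.84). Just under the threshold lay 3 reproducible peaks of 798 bp at X:1081691-1082488, X:6504712-6505509 and X:15600385-15601182, with scores of 57.52, 47.12 and 90.95. The threshold therefore divides a continuous run of peaks, with scores of the same order on either side.

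The highest-scoring DPY-26 peaks were broad regions. All 17 X peaks with a series-wide score of 200 or more were among the 403, as were the top 20 X peaks by score, 71 of the top 100 and 120 of the top 200. No X peak narrower than 800 bp scored above 154.42, a value that 32 broad regions exceeded. The highest autosomal score was 91.02. It was exceeded by 116 of the 403 regions (28.8%), by 68 of the 937 narrow reproducible X peaks (7.26%) and by 2.2% of all X peaks. The median score was 61.6 (interquartile range 34.2 to 96.6) in the broad regions and 31.7 (18.1 to 57.7) in the narrow reproducible peaks, so the ranges overlapped widely. Width and score come from the same peak calls that chose the regions, and no test was made of these differences.

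Among the broad regions, the series-wide score rose little with width until the widest class. The median score was 57.5 under 1000 bp, 58.9 from 1000 to under 1500 bp, 70.7 from 1500 to under 3000 bp and 219 at 3000 bp or more. Across the 403 regions, Spearman's rho between width and score was 0.157, and it was 0.0506 across those under 3000 bp. Across the 937 narrow reproducible peaks it was 0.464. These values describe peaks of 1 list, whose width and score rest on the same reads. Best replicate scores rose with each width class. From narrowest to widest their medians were 256, 308, 783 and 3100 in replicate 1. In replicate 2 they were 1009, 1308, 2429 and 3100, and no test was made of these differences. The replicate 1 value is the best of all peaks a region met. Of the widest class, 90.9% met 2 or more, against 2.36% of the narrowest, so the rise in replicate 1 can follow in part from width itself.

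**Figure D1:**
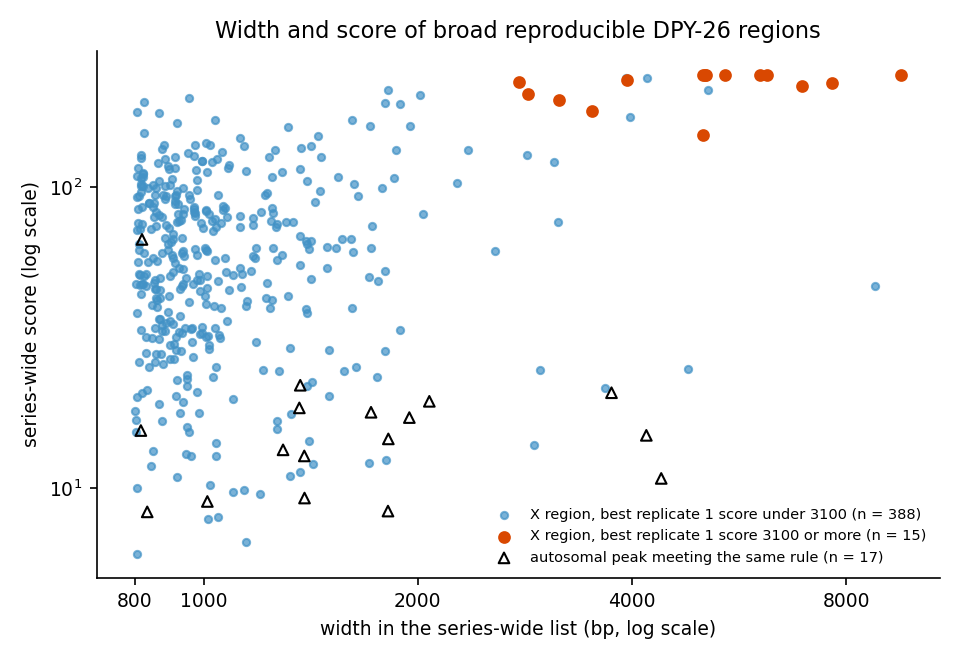
Series-wide score against width for the 403 broad reproducible X regions (circles) and for 17 autosomal peaks that meet the same rule (triangles), both axes logarithmic. The 15 regions with a replicate 1 score of 3100 or more (orange) are all wider than 2700 bp, and the autosomal peaks score 67 or less at every width.

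The widest regions fell in most windows of X, a count that was not compared with random placement. A region of 3000 bp or more was present in 14 of the 18 windows of 1 Mb, the last of which is cut short by the end of X. The widest of all was X:8032221-8041791, 9571 bp long. Its series-wide score was 236.34, the highest in the list, and its best peak scored 3100 in replicate 1 and 3100 in replicate 2. X:4205742-4213383 was 7642 bp long with a series-wide score of 221.63, and X:11090216-11097145 was 6930 bp long with 216.89. Both also reached 3100 in each replicate.

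Other wide regions scored as high. X:14522906-14529095 (6190 bp), X:9463276-9469328 (6053 bp), X:13698133-13703542 (5410 bp), X:11934265-11939345 (5081 bp), X:16053192-16058253 (5062 bp) and X:2993803-2998837 (5035 bp) all held the top series-wide score of 236.34. X:1385825-1390948 (5124 bp) had a series-wide score of 209.59, with 1500.63 in replicate 1 and 3100 in replicate 2. X:6294904-6298837 (3934 bp) and X:17542884-17546802 (3919 bp) were the widest of their windows, with series-wide scores of 227.39 and 229.85. Scores of exactly 3100 recur in the replicate lists, so regions at that value cannot be ranked against each other.

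In the remaining windows, which began at 3, 7, 10 and 15 Mb, no region reached 3000 bp. The widest regions there were X:3463949-3465658 (1710 bp, score 12.09), X:7150837-7152725 (1889 bp, score 33.45), X:10590625-10592016 (1392 bp, score 39.23) and X:15273770-15276043 (2274 bp, score 103.10). The window that began at 7 Mb nevertheless held a narrower region of high score, X:7180615-7182432 (1818 bp, score 210.77). Width and score thus do not pick out the same region in every window.

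Of the 22 widest regions, 18 scored 100 or more and 4 did not. X:5819806-5828605 was the second widest of all at 8800 bp, but its series-wide score was 46.95, with 556.55 in replicate 1 and 876.80 in replicate 2. X:109491-114280 (4790 bp) scored 24.86 series-wide, 534.85 by its replicate 1 peak and 2185.95 by its replicate 2 peak, and it was the region nearest the left end of X. X:14384732-14388395 (3664 bp) scored 21.42, and X:12691392-12694541 (3150 bp) scored 76.40. In both replicates the best peaks of these 4 regions, at 223.59 to 556.55 in replicate 1 and 570.56 to 2185.95 in replicate 2, lay under 3100. The other 18 all reached 3100 in replicate 2, and 13 of them did so in replicate 1.

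The lowest-scoring members show how far the rule reaches. The 5 lowest were X:13673519-13674324 (score 6.04), X:4963321-4964466 (6.59), X:10924078-10925091 (7.86), X:5697686-5698731 (8.02) and X:2061729-2062928 (9.54). Their best replicate 1 scores were 53.69, 1359.49, 87.60, 57.06 and 61.56. The second of them took its replicate scores from peaks it shared with the higher-scoring broad region X:4960164-4962733 (score 61.30). The replicate 2 peak that held both was 6208 bp long and scored 3100. A low series-wide score thus did not always go with low replicate scores.

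The replicates drew the same regions at different widths. In replicate 2 every one of the 403 regions lay wholly inside a single peak (100%, exact interval 99.1% to 100%). Of the narrow reproducible X peaks, 936 of 937 did too, and over all X peaks the share was 71.8%. Of the 6158 X peaks that a replicate 2 peak overlapped, 6100 were wholly contained, so the overlap the rule required nearly fixed this value. The 403 regions fell in 373 replicate 2 peaks, of which 346 held 1 region, 24 held 2 and 3 held 3. Those 373 peaks were 1280 to 16678 bp wide, with a median of 2390 bp, against 1305 bp for the other replicate 2 peaks on X. Across the 403 regions, the containing peak reached a median of 359 bp past the left edge of the region and 392 bp past the right edge. A peak that held several regions counts once for each.

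In replicate 1 the same regions were only partly covered. Replicate 1 peaks covered a median of 65.1% of a region (interquartile range 50.0% to 78.2%) and 62.9% of all their bases. Only 11 regions lay wholly inside replicate 1 peaks. The share over all X peaks was 1.45%, and 84 of the 937 narrow reproducible peaks (8.96%) were wholly covered. The midpoint of the best replicate 1 peak lay within 250 bp of the region's midpoint in 317 of 403 regions (78.7%), and its median distance was 108.5 bp. The best peak lay left of the midpoint in 183 regions (45.4%, exact interval 40.5% to 50.4%), so neither side was clearly preferred. Small distances follow in large part from the overlap the rule required and from the widths of region and peak, so these values describe the regions and are no sign of a preferred centre. At the midpoint itself, 86.1% of regions had a replicate 1 peak, against 8.44% at 1 kb to the left and 9.93% at 1 kb to the right.

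**Figure D2:**
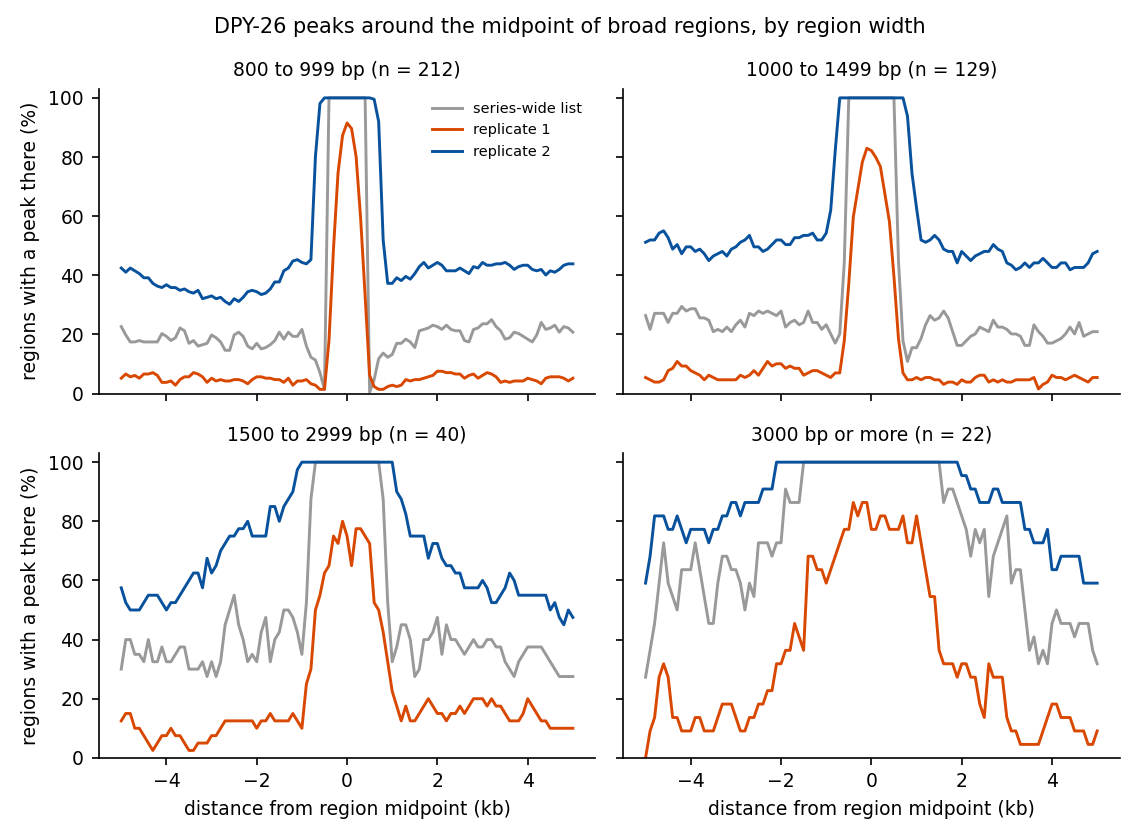
Share of regions (%) with a peak at each distance (kb) from the region midpoint, in 4 width classes, for the series-wide list, replicate 1 and replicate 2. Replicate 1 gives a single central rise that covers 91.5% of the 212 narrowest regions at their midpoint, and in the 22 widest regions a rise that still covers 59.1% at 1 kb to the left and 81.8% at 1 kb to the right.

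The number of replicate 1 peaks in a region was counted next. Of all 403 regions, 347 held 1 replicate 1 peak and 56 held 2 or more (13.9%). The background over all X peaks was 0.718%, but none of the 937 narrow reproducible peaks held 2, and a wider region has more room for several peaks, so nothing is read from the excess. By width class the share with 2 or more was 2.36% (5 of 212), 14.0% (18 of 129), 32.5% (13 of 40) and 90.9% (20 of 22). Replicate 2 gave 1 peak for each of these same regions.

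In X:8032221-8041791, replicate 1 had 9 peaks. The strongest was 1960 bp wide, scored 3100 and was centred 427.5 bp left of the midpoint. Its neighbour on the left, 1350 bp wide, scored 1023.03, and on the right peaks of 627 bp and 693 bp scored 616.88 and 783.80. The remaining 5 peaks scored 50.77 to 253.87. This region thus had 1 dominant core with weaker peaks on both flanks.

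X:14522906-14529095 was built the same way, with 4 replicate 1 peaks. A core 3065 bp wide scored 3100 and lay 73.5 bp from the midpoint, and the others scored 73.79 to 303.89. X:5819806-5828605, the wide region of low score, had 5 replicate 1 peaks and no such core. Its best peak scored 556.55 and was 1442 bp wide. It lay 3266 bp left of the midpoint, the largest distance among the 403 regions, and the other 4 scored 52.13 to 113.87.

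Replicate scores rose together over the regions. Spearman's rho between the best replicate 1 score and the score of the containing replicate 2 peak was 0.686 across the 403 broad regions and 0.559 across the 937 narrow ones. These are descriptions over peaks, and regions inside 1 replicate 2 peak share its score. Replicate 1 gave a median best score of 311 (50.3 to 3126.67), and replicate 2 gave 1222 (86.8 to 3190.85). In the widest class it was 3100 in both. All 17 replicate 1 peaks on X that scored 3100 or more touched a broad region. So did 34 of the 35 such peaks of replicate 2. Of X peaks at any score, 32.9% in replicate 1 and 10.2% in replicate 2 touched one. All 15 regions with a replicate 1 score of 3100 or more (3.72%, against 0.177% of all X peaks) also reached 3100 in replicate 2. In replicate 2, 46 regions (11.4%) reached it, against 18 of the 937 narrow reproducible peaks (1.92%) and 1.71% of all X peaks.

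**Figure D3:**
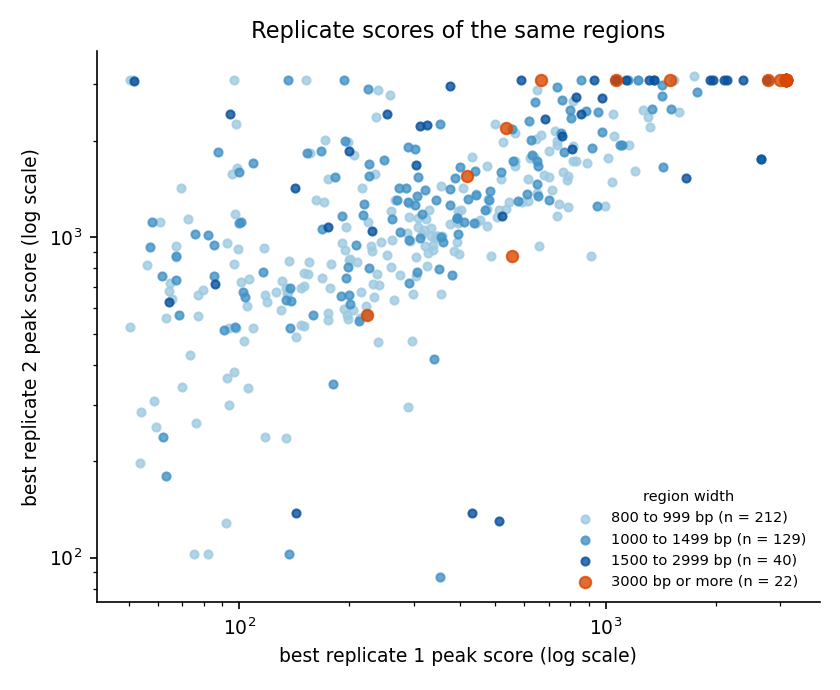
Best replicate 2 score against best replicate 1 score for each of the 403 regions, both axes logarithmic, coloured by region width. Of the 22 regions of 3000 bp or more, 18 sit at 3100 in replicate 2, and the other 4 lie lower on both axes.

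The share of each list's peak bases on X that lay in the broad regions differed between the lists. The regions held 15.8% of the peak bases of the series-wide list on X. They held 40.5% of those of replicate 1 and 8.13% of those of replicate 2, a mean of 24.3% ± 22.9 (SD, n = 2). The narrow reproducible peaks held 47.2% and 8.04% (27.6% ± 27.7, SD, n = 2). The gap between the replicates was far larger than the gap between broad and narrow regions in either of them, and it goes with peak bases on X of 825620 in replicate 1 and 6534783 in replicate 2. The part of sequencing depth in this was not tested, since the files hold no read counts.

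The regions were dispersed along the whole of X. After members less than 500 bp apart were joined, 387 regions remained. Their midpoints did not depart from a uniform spread along X beyond the threshold of 0.05 (exact one-sample Kolmogorov-Smirnov test, two-sided, statistic 0.0378, p = 0.62). The test takes each region as independent, describes this list and does not show that the spread is uniform. Cut into 3 parts of equal length, X held 138, 137 and 128 of the 403 regions from left to right. The first region began at base 109491 and the last ended at base 17546802.

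On the scale of 1 Mb the numbers of members, counted before joining, were uneven. Over 17 complete windows there were 23.1 ± 6.78 regions per window (SD), from 11 in the first window to 32 in the window that began at 1 Mb. The window that began at 3 Mb held 12, and those that began at 6 and 15 Mb held 16 each. The ratio of variance to mean was 1.99 for the broad regions and 0.918 for the narrow reproducible peaks in the same windows. In both, neighbours less than 500 bp apart count separately, which can add to the ratio. Spearman's rho across the 17 windows was 0.307 between broad and narrow counts and 0.349 between broad counts and all other X peaks. The first window, with the fewest broad regions, also held the fewest series-wide peaks of any complete window (319). The window that began at 3 Mb held 478 series-wide peaks and 54 narrow reproducible ones beside its 12 broad regions.

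Neighbouring joined regions were a median of 24966 bp apart (interquartile range 9345 to 59096 bp). The gaps ran from 587 to 294816 bp with a coefficient of variation of 1.13. Of the 386 gaps, 108 (28.0%) were under 10 kb and 46 (11.9%) exceeded 100 kb. Points placed at random with the same mean gap would give 20.4% and 10.2%, and a median of 30352 bp. No test was made of the difference. Narrow reproducible peaks joined in the same way had a median gap of 12088.5 bp, against 13380 bp for such points. Their coefficient of variation was 1.11. The variation of the gaps relative to their mean was therefore close in both sets, although broad regions were fewer. The 22 regions of 3000 bp or more lay 134510 to 1733383 bp apart, with a median of 691027 bp.

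**Figure D4:**
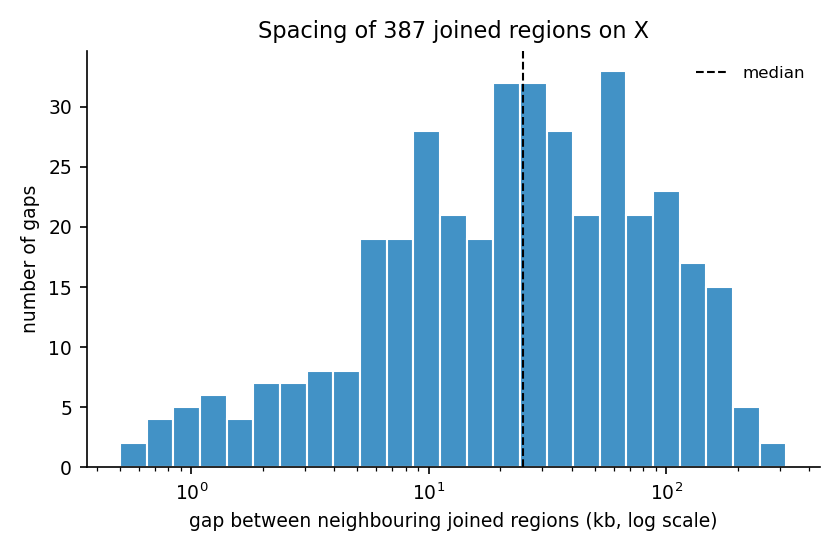
Number of gaps by length (kb, logarithmic axis) between the 387 joined regions, with the median as a dashed line. Gaps spread over more than an order of magnitude on either side of the median of 24966 bp, and 108 of 386 are under 10 kb.

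The longest stretches of X without a broad region still carried many DPY-26 peaks. The longest was X:3116649-3411464 (294816 bp), with 128 series-wide peaks, of which 21 were reproducible but narrow, and a highest score of 125.77. X:17184970-17434086 (249117 bp) held 113 series-wide peaks, 14 of them reproducible, and X:8836319-9067666 (231348 bp) held 78, with 9 reproducible. The density of series-wide peaks there was 434, 454 and 337 per Mb, against 480 per Mb over X.

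Some broad regions lay side by side inside a single replicate 2 peak. Joining merged 31 members into 15 groups, and each group lay inside 1 replicate 2 peak. The closest were at X:12852918-12854948, where members of 1018 and 963 bp lay 50 bp apart, and at X:2060641-2062928, where the gap was 66 bp. The only group of 3 members, X:11471799-11474860, lay in a replicate 2 peak of 16053 bp. X:13698133-13703542, one of the top-scoring regions, was separated by 170 bp from a region of 2351 bp, and together they spanned X:13695612-13703542, or 7931 bp.

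The surroundings of the regions were compared by the share of bases covered by peaks at set distances from a region's edge. Around all 403 regions, coverage by other series-wide peaks changed little, from 17.3% within 2 kb and 17.6% from 2 to 5 kb to 15.6% beyond 20 kb. The ratio of coverage within 5 kb to that beyond 20 kb was 1.12 for series-wide peaks. It was 0.983 in replicate 1 and 0.781 in replicate 2 (0.882 ± 0.143, SD, n = 2). The replicate ratios leave out every peak that touches a region. In replicate 2 this lowered coverage from 52.0% to 12.6% within 2 kb and from 38.5% to 32.9% from 2 to 5 kb. The replicate 2 ratio is therefore lowered by its construction. Around narrow reproducible peaks the series-wide ratio was 0.975, and the replicates gave 0.745 and 0.788 (0.766 ± 0.0302, SD, n = 2). With every peak counted, replicate 2 coverage around the 403 regions was 52.0% within 2 kb, 38.5% from 2 to 5 kb and 30.7% beyond 20 kb, and replicate 1 coverage was 3.19%, 2.74% and 2.69%. The direction in replicate 2 thus turned on whether the peaks that hold the regions were counted.

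The 22 widest regions gave other flank values than the rest, but the values do not count the same peaks. Around them other series-wide peaks, smaller broad regions included, covered 44.1% of bases within 2 kb and 30.4% from 2 to 5 kb. Coverage was 21.1% from 5 to 10 kb, 19.5% from 10 to 20 kb and 18.2% beyond 20 kb. Around the other 381 regions it was 17.1% within 2 kb, 18.9% from 2 to 5 kb and 16.0% beyond 20 kb. Bases inside those 381 regions were left out there but counted around the 22 widest. The same holds for the replicate values below. In replicate 1, with every peak counted, coverage around the widest regions was 9.11% within 2 kb, 6.28% from 2 to 5 kb and 4.27% beyond 20 kb, against 3.60%, 3.75% and 2.93% around the others. In replicate 2 the values were 75.9%, 51.5% and 36.0%, against 51.7%, 39.7% and 31.2%. These values count the replicate peaks that reach out of the regions themselves. Without such peaks, replicate 1 coverage within 2 kb was 8.64% around the widest regions and 2.93% around the others, while replicate 2 coverage was 9.44% and 12.8%. The ratio of coverage within 5 kb to that beyond 20 kb for the widest regions was then 1.69 in replicate 1 and 0.725 in replicate 2. From 2 to 5 kb, replicate 2 coverage without them was 37.1% around the widest regions and 33.0% around the others. Within 2 kb, replicate 1 was thus higher around the widest regions on both counts, and replicate 2 was higher there with the touching peaks counted and lower without them. The widest class was drawn after the values were seen, and this difference has no test. How much of it comes from which peaks were counted was not tested.

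**Figure D5:**
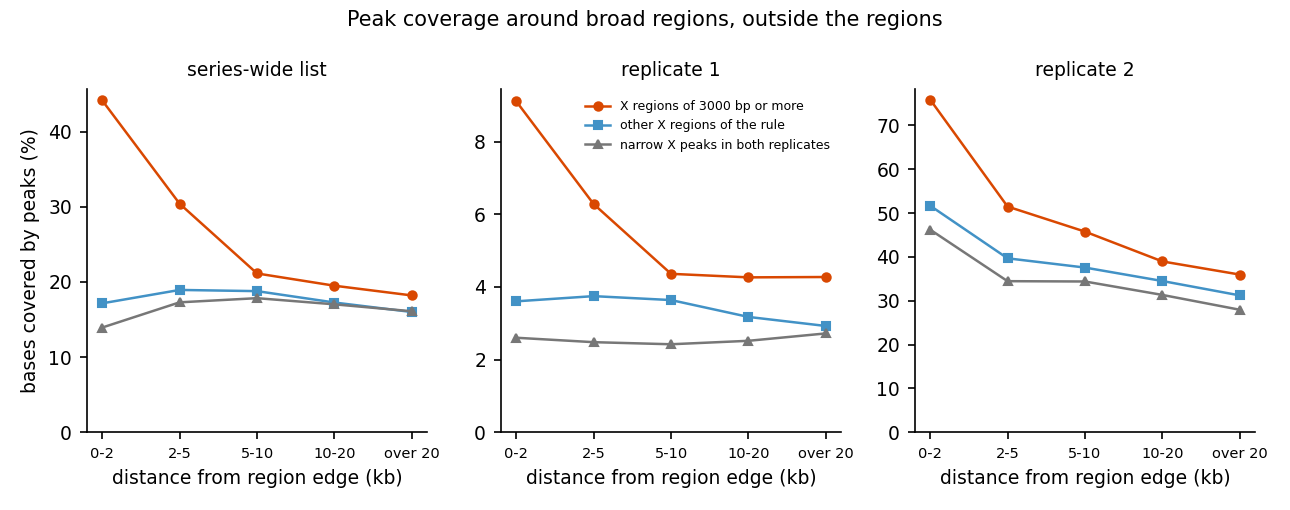
Share of bases (%) covered by any peak of the list against distance (kb) from the nearest region edge, for X regions of 3000 bp or more, the other broad X regions and narrow reproducible X peaks, in each of the 3 lists (vertical scales differ). Around the widest regions coverage falls from 44.1% within 2 kb to 18.2% beyond 20 kb in the series-wide list, and the other curves change far less there. Each curve leaves out bases inside its own set of regions, so the curves do not count the same peaks.

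The same rule found few autosomal peaks, and these had another shape than the 403 X regions. Of 48 autosomal peaks at least 800 bp wide, 17 were found in both replicates, or 35.4% (exact interval 22.2% to 50.5%). Their median width, 1386 bp, was above that of the X regions, and their median series-wide score, 14.96, was below it (61.6). The highest score among them was 67.0. Replicate 1 peaks covered 13 of the 17 wholly (76.5%, exact interval 50.1% to 93.2%), against 11 of 403 on X (2.73%, 1.37% to 4.83%), a share that lay between those of all X peaks (1.45%) and of narrow reproducible X peaks (8.96%). On X such wholly covered regions had a median series-wide score of 29.2, against 61.9 for the 392 partly covered ones, and they included the low-scoring X:109491-114280. The 24 broad X peaks found in replicate 1 only had medians of 1429.5 bp in width, 19.9 in score and 99.7% in replicate 1 coverage. This shape was thus not confined to autosomes. Replicate overlap was part of the rule and peaks of a list are not replicates, so the difference between X and the autosomes is given without a test.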

How the data were processed

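Peak lists of 2 DPY-26 ChIP replicates and 1 series-wide list were analysed, and input samples were not used. The submitters' processing notes name BWA and build ce10. Per the file headers, coordinates are on WormBase WS220, and the lists' source column names MACS (replicates) or MACS v2 (series-wide). Of the use of input, the thresholds and any pooling, nothing is stated in the labels or headers. The deposited lists give the limits of each peak and a score whose scale is undefined. Read depth is unknown, and exact (Clopper-Pearson) 95% intervals cover counting error only.

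Regions were selected, joined and measured with scipy 1.17.1, pandas 2.3.3, numpy 2.4.6 and matplotlib 3.10.9 under Python 3.11.15, with functions tested on simulated data. X was taken as 17718897 bp long, the largest coordinate in any list. Where a region met several replicate peaks, its best score was used. Named regions were the widest of each 1 Mb window, the 10 widest, those with most replicate 1 peaks, the 5 lowest-scoring, those around the width threshold, the closest joined pairs and the longest gaps. Others named, such as the wide regions of low score, X:7180615-7182432 and X:4960164-4962733, were picked after their values were seen. The members, lists and rules were chosen with earlier results of these data known. Alternatives were other widths, overlaps, joining distances, rings and lists.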

Additional observations from a re-analysis of the deposited data

How the results depend on the processing

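Of 44 alternative values over 5 results, 11 moved by more than the spread between replicates or, for the number of regions, by over 1.5 times, and 33 did not. The number of regions was 780 at a width of at least 600 bp, 191 at 1000 bp and 62 at 1500 bp, so it depends on the threshold. It was 302 with at least 50% of a region covered in each replicate, and 427 to 530 when overlap in only 1 replicate was required. The median gap was 13870 bp at 600 bp, 50747 bp at 1000 bp, 266246 bp at 1500 bp and 33864 bp with 50% coverage, as fewer or more regions entered. It was 20076 to 24156 bp with 1 replicate required. The uniformity test gave p of 0.41 to 0.73 under its 10 alternatives (exact Kolmogorov-Smirnov). The flank ratio was 1.66 at 1500 bp and 0.781 in the replicate 2 list. The share of X peak bases was 40.5% in the replicate 1 list. Its replicate SD of 22.9 is so large that values of 5.65% at 1500 bp, 10.2% at 1000 bp and 8.13% in the replicate 2 list, all under 15.8%, count as within the spread. The replicate lists and the ring of 5 to 10 kb were added as alternatives after the data were seen. No paired analysis was possible because peak lists of 1 group alone, the ChIP, were used here, and pairs need another group. The unknown read depth limits every width and count.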

Other observations

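Of the 561 X peaks at least 800 bp wide, 127 were found in replicate 2 only, 24 in replicate 1 only and 7 in neither. Those in replicate 2 only were close to the threshold, with a median width of 914 bp and a median series-wide score of 13.69. Those in replicate 1 only were wider, with a median of 1429.5 bp, and replicate 1 peaks covered a median of 99.7% of them. Their median series-wide score was 19.9.

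The widest X peak of the series-wide list was among those absent from replicate 2. It lay at X:16934429-16945936, was 11508 bp wide and scored 113.54, and replicate 1 peaks covered 17.7% of it. It lay in a stretch of 21293 bp without any replicate 2 peak, X:16928779-16950071, which held 11 replicate 1 peaks and 4 of the 24 broad peaks found in replicate 1 only. Another lay at X:7352327-7361368 (9042 bp, score 16.27), in a stretch of 19720 bp without a replicate 2 peak. The 24 peaks fell in 15 such stretches, which included the 3 longest of X, of 47494, 40909 and 40691 bp. The median of all 3653 stretches was 1839 bp. A broad peak absent from replicate 2 lies in such a stretch by definition and needs a stretch at least as wide as itself. Longer stretches also have more room for peaks, so nothing is read from this comparison. These peaks were described after their values were seen, and whether sequence or filtering of replicate 2 plays a part was not tested.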
